A study of Saccharomyces cerevisiae with 22 samples.

Results

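The 9 genes described here encode the transcription regulators through which Saccharomyces cerevisiae reads haem and oxygen: HAP1, HAP2, HAP3, HAP4, HAP5, ROX1, MOT3, CYC8 and TUP1. They were taken by gene symbol, each was measured by 1 probe set, and they are 9 of 5449 named genes on the array. Strain CEN.PK113-1A, a haploid of mating type alpha that needs no added amino acids or nucleotides, was grown in glucose-limited chemostats at 1 dilution rate on a medium with ergosterol and Tween 80. The feed gas held 0% oxygen (anaerobic), 0.5%, 1.0% or 2.8% (here called intermediate), or 20.9% (fully aerobic). By the paper, cultures at 2.8 and 20.9% oxygen also received exponentially growing cells at the start of feeding, against oscillations. The buffer for collecting anaerobic samples was saturated with nitrogen. Effects of such handling cannot be told apart from those of the oxygen level. Total RNA was hybridised to GeneChip Yeast Genome 2.0 arrays, with 6 arrays at 1.0% oxygen and 4 at each of the other levels. Replicate 1 at 1.0% oxygen is not used here.

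Haem is made only when oxygen is present, so yeast uses it as a signal for oxygen. Hap1p is a zinc cluster protein that binds haem itself: loaded with haem it switches on cytochrome and catalase genes, and unloaded it holds down part of the ergosterol pathway. The CCAAT-binding complex consists of the DNA-binding subunits Hap2p, Hap3p and Hap5p and of Hap4p, which carries the activation domain, and it drives many genes of respiration. Rox1p and Mot3p bind and repress hypoxic and anaerobic genes when haem is available, and both do so through the corepressor formed by Tup1p and Cyc8p. The transcript level of a regulator is not the activity of its protein, and only transcripts were measured here.

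Values are log2 intensities, so a difference of 1 is a 2-fold difference. Array medians lay between 9.04 and 9.10, and the SD of an array's deviations from its oxygen level, over all genes, was 0.08 to 0.34. It was largest for replicate 4 at 2.8% oxygen (0.32) and replicate 4 at 20.9% oxygen (0.34). The labels give collection by direct centrifugation for replicates 2 and 4 at 2.8% oxygen. The paper describes 4 cultivations each at 0, 1.0 and 20.9% oxygen and 2 each at 0.5 and 2.8%. Of those at 1.0%, 1 was sampled 4 times. Without replicate 1, the 6 arrays at 1.0% lack either 1 whole cultivation or 1 of the repeated samples, and which is not known. Some intermediate samples therefore share a chemostat. The linear model used below estimates 1 spread per gene from all 5 levels. Its p-values, those of 20.9% against 0% oxygen included, thus in part measure the spread between samples of 1 chemostat. In such bulk samples, fewer cells with a transcript and less transcript per cell cannot be told apart. Of the markers of alpha cells, MF(ALPHA)1 was 12.39 to 14.20, SAG1 7.93 to 13.12, STE3 8.54 to 11.99 and MF(ALPHA)2 6.36 to 13.19. The 4 markers of a cells, genes that alpha cells do not express, lay between 5.13 and 8.67. The alpha markers moved with oxygen as well: all 4 were higher at the intermediate levels than anaerobically and lower at 20.9% than at the intermediate levels. All 4 markers of a cells were higher at 20.9% than at 0% oxygen, so their range is only a rough guide to background. Its upper end was set by MFA1, and the next highest, STE2, reached 7.85.

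Of the 9 regulators, 6 differed between the 5 oxygen levels in the moderated F test of limma (adjusted p under 0.01), namely HAP1, HAP2, HAP3, HAP4, ROX1 and MOT3. Over all genes the share called was 60%. Differences were tested by contrasts of the same fit, with Benjamini-Hochberg adjustment over the 5449 genes. The widest range of the 5 group means among the regulators was that of MOT3, 2.09, which 5.18% of genes exceeded. HAP1 came next with 1.20, which 11.7% of genes exceeded. The ranges of CYC8 (0.12) and TUP1 (0.17) were narrower than those of 97.7% and 93.8% of genes.

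**Figure D1:**
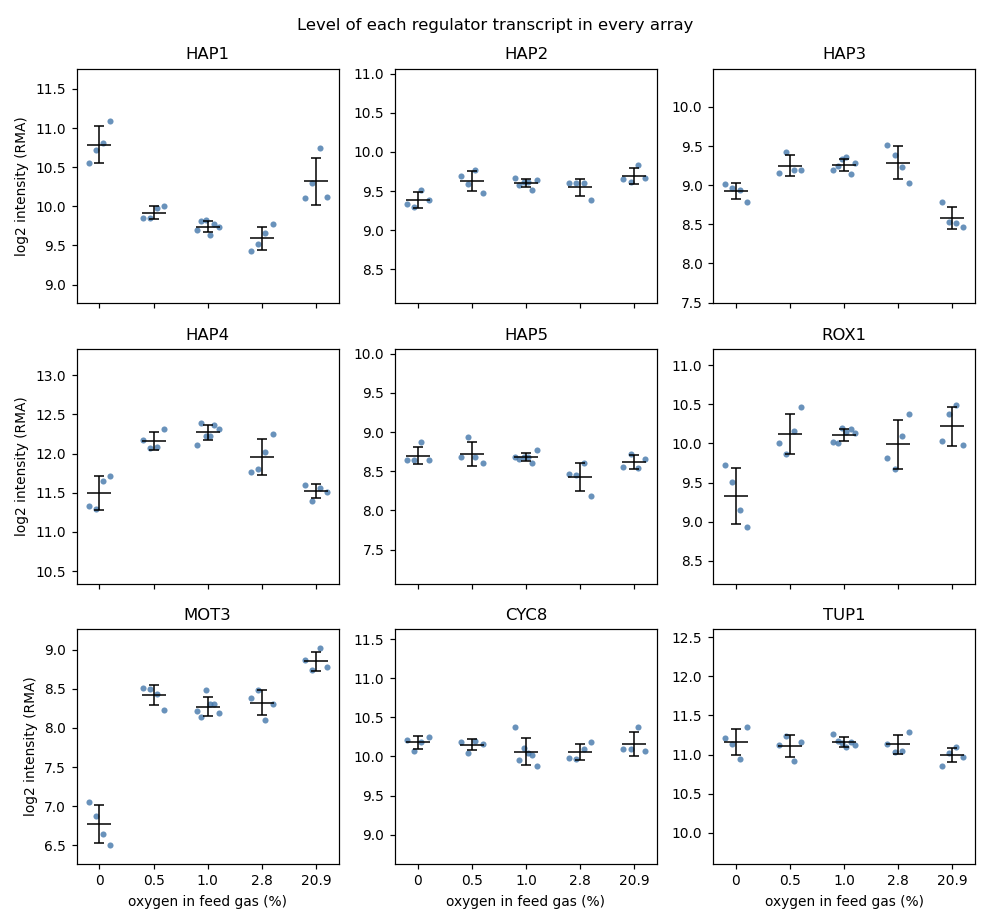
Log2 intensity of each of the 9 regulator transcripts (vertical axis, 3 log2 units in every panel) at the 5 oxygen levels, with the anaerobic one on the left and the fully aerobic one on the right; points are single arrays, bars are mean and SD (n = 6 at 1.0%, n = 4 elsewhere). MOT3 has its 4 anaerobic arrays between 6.51 and 7.05, below all others, HAP1 is lowest at the intermediate levels, and HAP3 and HAP4 are highest there.

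At the intermediate levels, taken as the mean of their 3 group means, 5 regulators were higher than in anaerobic conditions (HAP2, HAP3, HAP4, ROX1 and MOT3) and HAP1 was lower. Of all genes, 33.1% were called in this comparison, 15.8% higher and 17.3% lower. At 20.9% oxygen, HAP1 and MOT3 were higher than at the intermediate levels and HAP3 and HAP4 were lower, where 47.7% of all genes were called, 21.6% higher and 26.1% lower. Between 20.9% and 0% oxygen, HAP2, ROX1 and MOT3 were higher in the aerobic arrays and HAP1 and HAP3 lower, while 50.6% of all genes were called, 21.9% higher and 28.6% lower. No regulator was called between any pair of the intermediate levels, in comparisons that called 0.165% (1.0% against 0.5%), 5.67% (2.8% against 0.5%) and 1.71% (2.8% against 1.0%) of all genes. At an unadjusted p under 0.05, HAP1 and HAP5 would have passed between 2.8 and 0.5% oxygen, and HAP4 and HAP5 between 2.8 and 1.0%. With array weights, HAP1, HAP3, HAP4, HAP5 and MOT3 each passed between at least 1 pair of these levels.

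Against 0% oxygen, 4 regulators were called at 0.5% (26.9% of all genes), 5 at 1.0% (28.6%) and 5 at 2.8% (25.7%): HAP1, HAP4, ROX1 and MOT3 at each level, and HAP3 at 1.0 and 2.8%. At 20.9% oxygen, 3 were called against 0.5% (35.2% of all genes), 4 against 1.0% (42.7%) and 4 against 2.8% (40.5%). HAP3, HAP4 and MOT3 were called in each of these, and HAP1 against 1.0 and 2.8% oxygen.

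**Figure D2:**
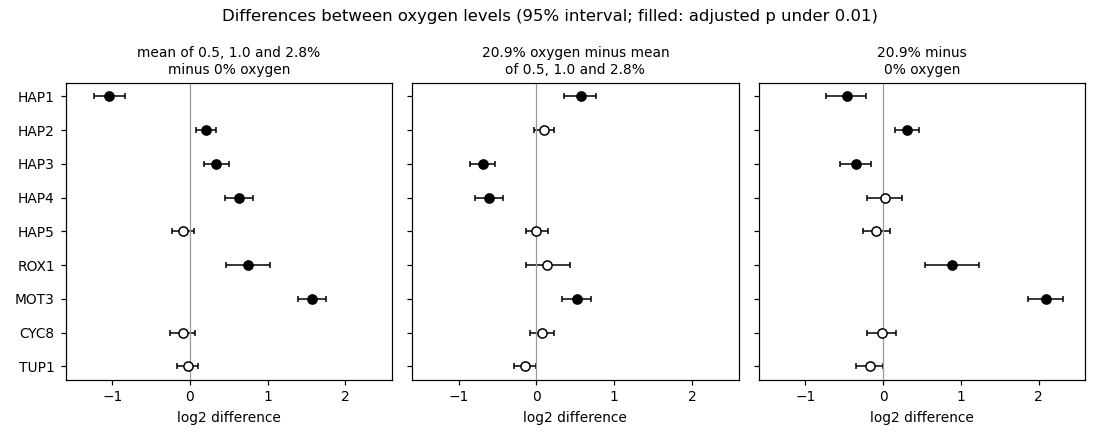
Log2 differences (horizontal axis) with 95% intervals for the 9 regulators in 3 comparisons: the mean of the 3 intermediate levels minus 0% oxygen, 20.9% minus that mean, and 20.9% minus 0%. Filled points passed an adjusted p of 0.01 in limma; CYC8, TUP1 and HAP5 are open in all 3 panels, and HAP4 lies at 0.02 in the right-hand one.

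HAP1 was lowest where oxygen was scarce but present. Its levels were 10.55, 10.72, 10.81 and 11.09 at 0% oxygen and 9.85, 9.85, 9.98 and 10.01 at 0.5%. They ran from 9.64 to 9.82 with a median of 9.75 at 1.0%, and were 9.43, 9.52, 9.66 and 9.77 at 2.8% oxygen. Fully aerobic arrays had 10.11, 10.30, 10.75 and 10.12. All 14 intermediate arrays lay below all anaerobic and all aerobic ones, while replicate 3 at 20.9% oxygen (10.75) lay within the anaerobic range.

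HAP1 averaged 9.75 over the intermediate levels and 10.79 ± 0.23 anaerobically (SD, n = 4), a log2 change of -1.04 (SE 0.10, adjusted p = 1.8e-08), or 2.05-fold lower. It averaged 10.32 ± 0.30 at 20.9% oxygen (SD, n = 4), which was 0.57 above the intermediate levels (SE 0.10, adjusted p = 5.2e-05). Of all genes, 2.81% dipped in this way, called below both ends. At 20.9% oxygen HAP1 was 0.47 lower than at 0% on the log2 scale (log2 change -0.47, SE 0.12, adjusted p = 0.0021). That call was lost without replicate 4 at 0% oxygen (-0.37, adjusted p = 0.012), without replicate 1 at 20.9% (-0.40, adjusted p = 0.010) and in a fit of these 2 levels alone (adjusted p = 0.037). In order of mean level, neither 2.8 and 1.0% nor 1.0 and 0.5% oxygen were called apart (adjusted p = 0.55 and 0.53), nor were 0.5 and 20.9% (adjusted p = 0.011), and 0% was highest. The laboratory strain used as the yeast reference carries a Ty1 insertion in HAP1; where the probes lie relative to it was not examined.

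The subunits of the CCAAT-binding complex did not move together. HAP3 and HAP4 were higher at the intermediate levels than at both ends, a pattern that 5.29% of all genes had. HAP2 was lowest anaerobically, and HAP5 passed the test in no comparison.

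HAP4, the activation subunit, had 11.33, 11.29, 11.65 and 11.72 at 0% oxygen and 12.18, 12.07, 12.08 and 12.31 at 0.5%. At 1.0% oxygen it ran from 12.11 to 12.39 with a median of 12.27, at 2.8% it was 11.76, 11.80, 12.02 and 12.25, and at 20.9% oxygen 11.60, 11.40, 11.56 and 11.51. Every intermediate array was above every array at either end, although replicate 1 at 2.8% (11.76) was close to the highest anaerobic one (11.72). HAP4 averaged 12.13 over the intermediate levels and 11.50 ± 0.22 at 0% oxygen (SD, n = 4), a difference of 0.63 (SE 0.09, adjusted p = 4.1e-06; 1.55-fold). Aerobic arrays averaged 11.52 ± 0.09 (SD, n = 4), which was lower than the intermediate mean by a log2 change of -0.61 (SE 0.09, adjusted p = 4.7e-06; 1.53-fold). The ends differed by 0.02, with a 95% interval of -0.21 to 0.24. Among the intermediate levels, the drop at 2.8% against 1.0% oxygen was -0.31 and did not pass (adjusted p = 0.088). The 20.9% arrays were 0.44 below those at 2.8% (log2 change -0.44, adjusted p = 0.0018). That call was lost in 4 alternatives: without the 2 samples at 2.8% collected by direct centrifugation (-0.37, adjusted p = 0.018), without replicate 4 at 2.8% and replicate 4 at 20.9% together (-0.34, adjusted p = 0.016), in a fit of these 2 levels alone (adjusted p = 0.022), and with 2 arrays at 0.5% and 2 at 2.8% (adjusted p = 0.012).

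HAP3, a DNA-binding subunit, had 9.02, 8.97, 8.94 and 8.78 at 0% oxygen and 9.16, 9.43, 9.20 and 9.19 at 0.5%. It ran from 9.14 to 9.36 with a median of 9.27 at 1.0%, and was 9.52, 9.38, 9.23 and 9.03 at 2.8% oxygen. The 20.9% arrays had 8.78, 8.53, 8.52 and 8.46, at or below the lowest of all other arrays. Replicate 4 at 2.8% oxygen (9.03) was level with replicate 1 at 0% (9.02), and the remaining intermediate arrays were higher.

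Unlike those of HAP4, the 2 ends differed for HAP3. It averaged 9.27 over the intermediate levels and 8.93 ± 0.10 anaerobically (SD, n = 4), a difference of 0.34 (SE 0.08, adjusted p = 0.0011). At 20.9% oxygen it averaged 8.58 ± 0.14 (SD, n = 4), lower than at the intermediate levels by a log2 change of -0.69 (SE 0.08, adjusted p = 1.9e-07; 1.61-fold). Against 0% oxygen the aerobic change was -0.35 (adjusted p = 0.0031). It missed the threshold without replicate 1 at 0% (-0.32, adjusted p = 0.013), without replicate 4 at 20.9% (-0.31, adjusted p = 0.012) and in a fit of these 2 levels alone (adjusted p = 0.015). At 0.5% oxygen alone the rise over 0% was 0.32 and just missed (adjusted p = 0.011), and it passed in 9 of 33 alternatives.

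HAP2, which encodes another DNA-binding subunit, had 9.33, 9.30, 9.52 and 9.39 at 0% oxygen and 9.69, 9.59, 9.77 and 9.48 at 0.5%. It ran from 9.51 to 9.67 with a median of 9.62 at 1.0%, and was 9.60, 9.60, 9.60 and 9.38 at 2.8% and 9.66, 9.61, 9.83 and 9.67 at 20.9% oxygen. The aerobic arrays lay above all anaerobic ones, while the intermediate arrays overlapped both. HAP2 averaged 9.69 ± 0.10 at 20.9% and 9.39 ± 0.10 at 0% oxygen (SD, n = 4 each), a difference of 0.31 (SE 0.07, adjusted p = 0.0012), which missed the threshold in a fit of these 2 levels alone (adjusted p = 0.017). The intermediate mean was 0.21 above 0% oxygen (SE 0.06, adjusted p = 0.0073). This smaller difference lost its call in 15 of 33 alternatives, among them leaving out any 1 of 12 arrays, with changes of 0.18 to 0.22 and adjusted p of up to 0.040. The F test of HAP2 (adjusted p = 0.0094) was lost in 19 of 31 alternatives, with adjusted p of up to 0.042.

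HAP5 had 8.64, 8.65, 8.87 and 8.65 at 0% oxygen and 8.68, 8.94, 8.68 and 8.60 at 0.5%. It was between 8.61 and 8.77 with a median of 8.68 at 1.0%, and was 8.47, 8.45, 8.61 and 8.19 at 2.8% and 8.55, 8.72, 8.54 and 8.66 at 20.9% oxygen. Of the arrays at 2.8%, 3 were below those of every other level, with replicate 4 the lowest. The change at 2.8% against 0% oxygen was -0.27 (SE 0.09, adjusted p = 0.017) and did not pass. At 20.9% against 0% oxygen it was -0.09, with a 95% interval of -0.26 to 0.09, so a difference of more than 1.20-fold was outside the interval. Of the a-cell markers only MFA1, at up to 8.67, reached levels of HAP5. Whether HAP5 was above background was not tested, and a level near background understates a change.

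Because levels of different probe sets cannot be compared, the subunits were set against each other by the difference of their log2 levels within an array, using exact permutation tests over samples (two-sided, 18 tests, Benjamini-Hochberg adjusted, threshold 0.05). These tests were added after the values were seen, they weight the 14 intermediate arrays equally, and their smallest possible p was 0.00033. They count samples of 1 chemostat as separate, so their p-values are too small where such samples are alike. Changes of HAP5, whose levels overlapped those of MFA1, may be understated. Between the intermediate and anaerobic arrays, HAP4 changed by 0.73 more than HAP5 (adjusted p = 0.00074) and HAP3 by 0.42 more than HAP5 (adjusted p = 0.00074). HAP2 changed by 0.29 more than HAP5 (adjusted p = 0.0035) and by 0.44 less than HAP4 (HAP2 minus HAP4 -0.44, adjusted p = 0.0048). HAP3 and HAP4 differed in their change by -0.31, which did not pass (adjusted p = 0.095); 3 of 23 leave-outs passed, down to adjusted p = 0.026.

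Between 20.9% oxygen and the intermediate levels, HAP3 and HAP4 changed by -0.68 and -0.63 relative to HAP5 (adjusted p = 0.00074 each). Relative to HAP2 the differences were as large, at 0.79 for HAP2 minus HAP3 and 0.73 for HAP2 minus HAP4 (adjusted p = 0.00074 each). The changes of HAP3 and HAP4 differed by -0.06 (adjusted p = 0.74), and those of HAP2 and HAP5 by 0.10 (adjusted p = 0.26). Over the 22 arrays HAP3 and HAP4 correlated with r = 0.63, but their deviations from the group means had r = -0.58. These are descriptions over arrays that share samples of a chemostat. The opposed deviations were largest in replicates 1 to 4 at 2.8% oxygen. There HAP3 deviated by 0.23, 0.09, -0.06 and -0.26 and HAP4 by -0.20, -0.15, 0.06 and 0.29. Not every level showed this: at 20.9% oxygen replicate 1 was the highest array in both (0.21 and 0.08).

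**Figure D3:**
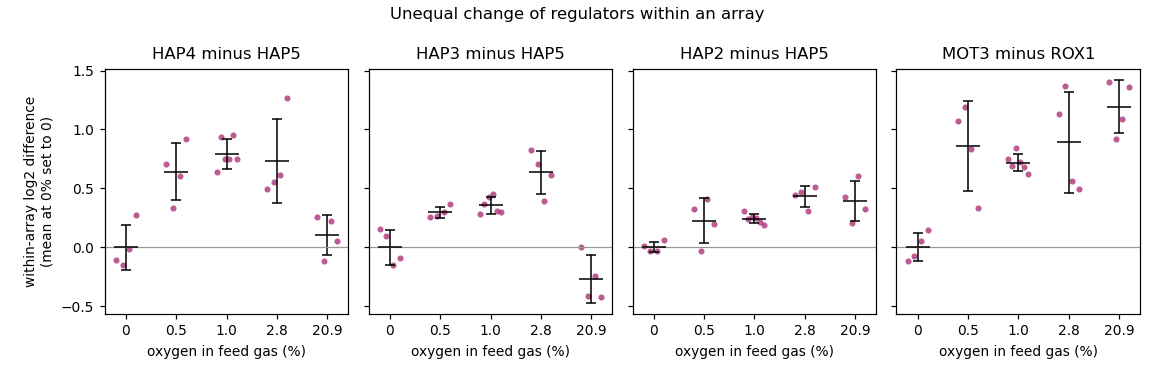
Log2 level of 1 regulator minus that of another in the same array, with the mean at 0% oxygen set to 0 (vertical axis), at 5 oxygen levels; points are arrays and bars are mean and SD. HAP4 minus HAP5 is up at the intermediate levels and near 0 at 20.9%, HAP3 minus HAP5 falls below 0 at 20.9%, and MOT3 minus ROX1 is above 0 at every level with oxygen.

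Both repressors of hypoxic genes were lowest in anaerobic cells, and MOT3 changed more than ROX1. MOT3 had 7.05, 6.87, 6.64 and 6.51 at 0% oxygen, a mean of 6.77 ± 0.24 (SD, n = 4). It had 8.51, 8.50, 8.43 and 8.23 at 0.5%, ran from 8.14 to 8.48 with a median of 8.25 at 1.0%, and had 8.38, 8.49, 8.10 and 8.31 at 2.8% oxygen. The 20.9% arrays had 8.87, 8.74, 9.02 and 8.78. MOT3 thus formed 3 separate tiers: no anaerobic array reached an intermediate one, and no intermediate array reached an aerobic one.

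MOT3 averaged 8.34 over the intermediate levels, a difference of 1.57 from 0% oxygen (SE 0.09, adjusted p = 3e-12; 2.97-fold). At 20.9% oxygen it averaged 8.85 ± 0.12 (SD, n = 4), another 0.52 above the intermediate levels (SE 0.09, adjusted p = 4.2e-05; 1.43-fold). Of all genes, 4.9% were called higher in both steps. From end to end the difference was 2.09 (SE 0.11, adjusted p = 1e-12), or 4.25-fold, and 4.20% of genes changed more in either direction. At 0.5% oxygen the whole of the first step was present (1.65 over 0%, adjusted p = 9.1e-11), and the 3 intermediate levels were not called apart (adjusted p = 0.59 to 0.85). No alternative ended the call of MOT3 in any of these comparisons with 0 or 20.9% oxygen. Whether MOT3 was above background at 0% oxygen was not tested. Its levels there lay within the range of the a-cell markers, as did its intermediate levels of 8.10 to 8.51, which only MFA1 reached. A level near background understates a fold change.

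ROX1 had 9.73, 9.51, 9.15 and 8.93 at 0% oxygen, a wide spread, and 10.00, 9.87, 10.16 and 10.46 at 0.5%. It ran from 10.01 to 10.20 with a median of 10.14 at 1.0%, was 9.81, 9.68, 10.10 and 10.38 at 2.8%, and 10.03, 10.38, 10.49 and 9.98 at 20.9% oxygen. Replicate 2 at 2.8% oxygen (9.68) lay below replicate 1 at 0% (9.73), and all other arrays with oxygen were above the anaerobic ones. ROX1 averaged 10.08 over the intermediate levels and 9.33 ± 0.36 at 0% oxygen (SD, n = 4), a difference of 0.75 (SE 0.14, adjusted p = 0.00012; 1.68-fold). The aerobic mean of 10.22 ± 0.25 (SD, n = 4) was 0.89 above the anaerobic one (SE 0.17, adjusted p = 0.00011; 1.86-fold). Against the intermediate levels it differed by 0.14, with a 95% interval of -0.14 to 0.43 (adjusted p = 0.37). In order of mean level, only 0% oxygen was called apart from its neighbour, 2.8% (adjusted p = 0.0037).

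Within arrays, MOT3 changed by 0.81 more than ROX1 between the intermediate and anaerobic arrays (exact permutation test, adjusted p = 0.00074). Between 20.9% and the intermediate levels the excess was 0.39 (adjusted p = 0.037), which was lost in 7 of 23 leave-outs, with differences of 0.32 to 0.42 and adjusted p of up to 0.13. The arrays whose absence ended it were replicates 6 and 7 at 1.0%, 3 and 4 at 2.8%, and 1, 3 and 4 at 20.9% oxygen. ROX1, whose expression Hap1p is known to induce, moved against HAP1 between the intermediate and anaerobic arrays, where its change exceeded that of HAP1 by 1.79 (adjusted p = 0.00074). Between 20.9% and the intermediate levels the change of ROX1 was 0.14, which was not called, and that of HAP1 0.57 (ROX1 minus HAP1 -0.43, adjusted p = 0.0013).

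Neither corepressor gene passed the test in any comparison. CYC8 had 10.21, 10.07, 10.19 and 10.25 at 0% oxygen, 10.18, 10.04, 10.20 and 10.16 at 0.5%, and 9.88 to 10.38 with a median of 10.03 at 1.0%. It had 9.98, 9.97, 10.10 and 10.18 at 2.8% and 10.09, 10.10, 10.38 and 10.07 at 20.9% oxygen. The groups overlapped throughout. The aerobic minus anaerobic difference was -0.02, with a 95% interval of -0.21 to 0.17, so a change of more than 1.16-fold lay outside the interval.

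TUP1 had 11.21, 11.14, 10.94 and 11.35 at 0% oxygen, 11.12, 11.24, 10.92 and 11.16 at 0.5%, and 11.09 to 11.26 with a median of 11.16 at 1.0%. It had 11.13, 11.03, 11.05 and 11.29 at 2.8% and 10.86, 11.02, 11.09 and 10.97 at 20.9% oxygen. The aerobic arrays lay at the low end and overlapped those at 0, 0.5 and 2.8% oxygen. The change at 20.9% was -0.15 against the intermediate levels (SE 0.07, adjusted p = 0.072) and -0.17 against 0% oxygen (SE 0.09, adjusted p = 0.081), with intervals reaching 1.22-fold and 1.28-fold. Within arrays, TUP1 changed by 0.22 less than CYC8 between 20.9% and the intermediate levels (TUP1 minus CYC8 -0.22, exact permutation test, adjusted p = 0.017). This was lost without replicate 1 at 20.9% (-0.21, adjusted p = 0.051) or without replicate 3 at 20.9% (-0.18, adjusted p = 0.069).

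**Figure D4:**
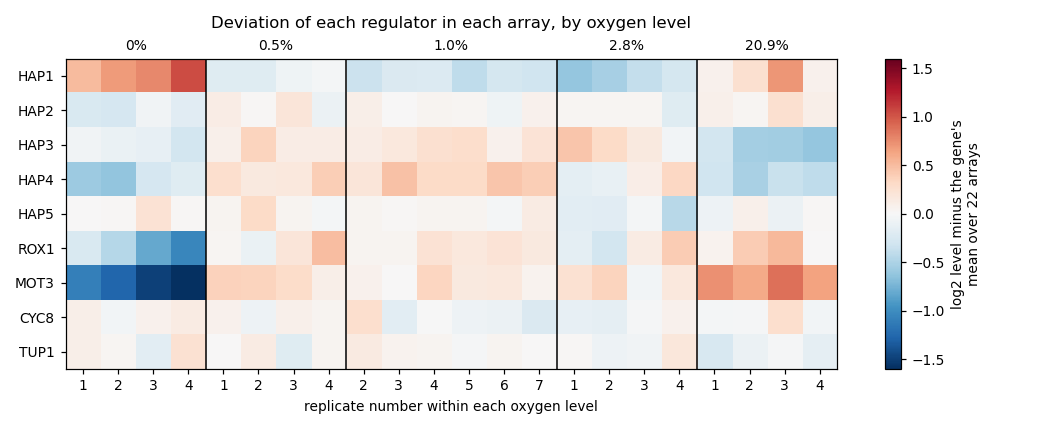
Log2 level of each regulator (rows) in each of the 22 arrays (columns, grouped by oxygen level from 0 to 20.9%) minus that gene's mean over the arrays, in colour from -1.6 to 1.6. The anaerobic arrays are high in HAP1 and low in HAP4, ROX1 and MOT3, the aerobic arrays are low in HAP3 and HAP4, and CYC8 and TUP1 stay pale.

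Textbook targets of these regulators were counted beside them. The lists share genes, such as CYC1 and CYT1 between the 2 activators and ANB1 and HEM13 between the 2 repressors, so their counts are not independent. Medians over all genes were -0.04 for the intermediate levels against 0%, -0.04 for 20.9% against the intermediate levels, and -0.07 for 20.9% against 0% oxygen. The shares of all genes called were 15.8% higher and 17.3% lower in the first of these comparisons, 21.6% and 26.1% in the second, and 21.9% and 28.6% in the third. Differences of genes whose levels in a group lay among the a-cell markers, such as ANB1, AAC3 and CTT1 at the intermediate levels, may be understated. A call does not mean separate groups. At 20.9% oxygen SDH2, QCR8, CYB2, ERG11, ERG5, HMG2, ERG9 and NRG1, among others, overlapped intermediate arrays.

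Of 21 genes activated by Hap2/3/4/5p, 20 were higher at the intermediate levels than at 0% oxygen (median 0.86) and 20 were lower at 20.9% than at the intermediate levels (median -0.49). At 20.9% oxygen 13 of them were higher than at 0%, and 8 did not pass. HEM1, which starts haem synthesis, was the one gene that passed in none of the 3 comparisons (0.23, adjusted p = 0.14, at the intermediate levels against 0%). COX4, a subunit of cytochrome c oxidase, was 0.96 higher at the intermediate levels than at 0% (adjusted p = 2.5e-10) and changed by -0.80 at 20.9% (adjusted p = 7.6e-09). SDH2, the iron-sulphur subunit of succinate dehydrogenase, changed by 0.82 and -0.35 (adjusted p = 1.2e-10 and 2.8e-05), and QCR8 of the cytochrome bc1 complex by 0.39 and -0.31 (adjusted p = 3.3e-05 and 0.00025). HAP4 and HAP3 had the same signs in the first and second of these comparisons, which share the intermediate arrays. At 20.9% against 0% oxygen they did not, with HAP3 lower (-0.35) and HAP4 at 0.02.

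The Hap1p-activated genes did not follow 1 pattern. Of 7, 4 were higher at the intermediate levels than at 0% oxygen and none lower, and at 20.9% oxygen 3 were higher and 3 lower than at the intermediate levels. Between 20.9% and 0% oxygen, 5 were higher and 2 lower in the aerobic arrays. CYB2, which oxidises lactate, was 4.42 higher at the intermediate levels than at 0% (adjusted p = 1.8e-15) and 0.77 higher again at 20.9% (adjusted p = 0.00034). CYC1, the main form of cytochrome c, changed by 2.20 (adjusted p = 2.2e-15) and then by -0.98 (adjusted p = 3e-09). CYT1, cytochrome c1, changed by 1.36 (adjusted p = 2e-13) and -0.39 (adjusted p = 3.7e-05). CTT1, cytosolic catalase, changed by -0.36 at the intermediate levels (adjusted p = 0.25) and was 4.13 higher at 20.9% (adjusted p = 2.7e-11). HMG1 of sterol synthesis changed by 1.67 and 0.69 (adjusted p = 1.4e-14 and 4.5e-08), and YHB1, a flavohaemoglobin, by -1.39 at 20.9% (adjusted p = 3.6e-08). HAP1 itself was lower at the intermediate levels, where 4 of these 7 genes were higher than at 0%.

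Of 3 sterol genes that Hap1p represses without haem, ERG11 (-0.50, adjusted p = 5.5e-07) and ERG2 (-1.18, adjusted p = 1.8e-09) were lower at the intermediate levels than at 0% oxygen, and ERG5 changed by 0.13 (adjusted p = 0.38). Against the intermediate levels, ERG11 and ERG5 were higher at 20.9% oxygen (0.42 and 0.39). ERG5 was 11.75 to 12.58 at 20.9%, overlapping 11.69 to 11.90 at 1.0%. ERG11, at 13.42 to 13.78, just met the 13.21 to 13.43 at 0.5%. Of 4 chaperones and partners of Hap1p, the Hsp90 gene HSP82 and the co-chaperone gene YDJ1 were higher at the intermediate levels than at 0% (0.47 and 0.29) and higher again at 20.9% (0.92 and 0.45). The rise of HSP82 was uneven: it was 11.98 to 12.45 at 0.5% and 11.83 to 12.21 at 1.0% oxygen. At 2.8% it was 10.87 to 11.85, overlapping 11.13 to 11.75 at 0%. SSA1 (0.27) and SRO9 (0.07) did not pass at the intermediate levels against 0%.

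Of 8 Rox1p-repressed genes, 6 were lower at the intermediate levels than at 0% oxygen (median -1.23) and none was higher. ANB1, the hypoxic form of translation factor eIF5A, changed by -5.26 (adjusted p = 3.7e-20), HEM13 of haem synthesis by -3.07 (adjusted p = 1.7e-19), COX5B by -1.87 (adjusted p = 2.1e-12) and AAC3 by -3.16 (adjusted p = 3.2e-10). At 20.9% oxygen HEM13 and COX5B were lower than at the intermediate levels (-1.02 and -1.04), and ANB1 changed by -0.14 (adjusted p = 0.23). COX5B was 6.33 to 6.87 at 20.9%, overlapping 6.65 to 7.31 at 2.8%. AAC3 was counted as higher, at 6.05 to 8.11 against 5.81 to 6.54 at the intermediate levels. These groups overlapped within the range of the a-cell markers, so no direction is given for AAC3. HMG2 (0.46) and ERG11 (0.42) were the other 2 counted as higher at 20.9%. The change of ROX1 in that step did not pass. At 20.9% against 0% oxygen, 5 of the 8 were lower. The other 3, HMG2 (-0.10) and ERG11 (-0.08) among them, did not pass.

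All 6 Mot3p-repressed genes were lower at the intermediate levels than at 0% oxygen (median -2.13). DAN1, a cell wall protein of anaerobic cells, was 4.15 to 4.64 at the intermediate levels, below all a-cell markers, and 13.08 to 13.65 at 0% oxygen. At 20.9% oxygen 3 of the 6 were higher and 1 lower than at the intermediate levels, with ERG6 0.70 and ERG9 0.33 higher and HEM13 lower. The third counted as higher was DAN1, which was 4.18 to 5.86 at 20.9% oxygen, overlapping the intermediate arrays, with both groups below or at the low end of the a-cell markers, so no direction is given for it. MOT3 was higher in that step too. At 20.9% against 0% oxygen, 5 of the 6 were lower and ERG6 (0.04) did not pass.

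**Figure D5:**
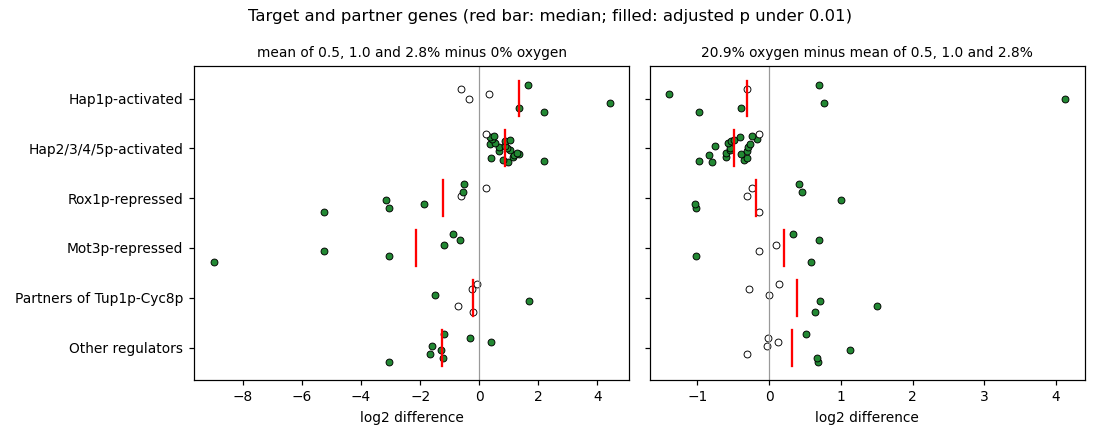
Log2 differences (horizontal axes of unlike scale) of single genes in 6 lists for the mean of the 3 intermediate levels minus 0% oxygen and for 20.9% oxygen minus that mean; filled points passed an adjusted p of 0.01 and red bars are medians. Hap2/3/4/5p-activated genes lie right of 0 in the left panel and left of 0 in the right one, and all Mot3p-repressed genes lie left of 0 in the left panel, where the leftmost point, DAN1, is limited by its intermediate levels of 4.15 to 4.64.

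Of 6 other DNA-binding partners of Tup1p-Cyc8p, 1 was higher and 1 lower at the intermediate levels than at 0% oxygen, and 3 were higher at 20.9% than at the intermediate levels. NRG1 was 1.69 higher (adjusted p = 1.6e-07) and NRG2 changed by -1.49 (adjusted p = 0.00011) at the intermediate levels against 0% oxygen. The glucose repressor gene MIG1 (0.64, adjusted p = 4.4e-07) and NRG1 (0.71, adjusted p = 0.0025) were higher at 20.9% than at the intermediate levels. MIG2, also counted as higher, was 5.99 to 6.62 at 20.9% oxygen and 4.40 to 5.61 at the intermediate levels, within or below the range of the a-cell markers, so the size of its change is not given. These counts, 2 of 6 and 3 of 6, are close to the 33.1% and 47.7% of all genes called.

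Of 8 further regulators of oxygen, sterol and haem responses, 7 were lower at the intermediate levels than at 0% oxygen, as HAP1 was, and SPT23 was higher (0.41, adjusted p = 0.00057). UPC2, which activates sterol uptake, changed by -3.05 (adjusted p = 1.8e-13), its paralogue ECM22 by -1.21 (adjusted p = 2.5e-11) and SUT2 by -1.29 (adjusted p = 3.1e-12). SUT1 changed by -1.68 (adjusted p = 4.8e-06), but unevenly: it was 9.86 to 10.14 at 0% oxygen, 7.67 to 8.12 at 0.5 and 1.0%, and 8.58 to 10.77 at 2.8%, where it overlapped the anaerobic arrays. At 20.9% oxygen 4 of the 8 were higher than at the intermediate levels, with UPC2 at 0.68 and ECM22 at 0.67, and none was lower. UPC2 was 7.40 to 8.57 at 20.9% oxygen, overlapping 7.47 to 7.82 at 0.5%.

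The genes most like each responding regulator were named by the Pearson correlation of log2 levels over the 22 arrays, among the 3208 candidates, the genes past the F test whose probe set matches a single transcript. The arrays of an oxygen level share their condition, and these values describe likeness only. HAP1 was most like ECM22 (0.93), ROX3, a Mediator subunit (0.93), and RNR4, a ribonucleotide reductase subunit (0.91). HAP4 was most like ATP2, the beta subunit of ATP synthase (0.96), the G1 cyclin CLN3 (0.92) and UTH1 (0.92). HAP3 was most like ATP19 (0.95) and MIC12 (0.94), both of the mitochondrial inner membrane, and the cell wall gene CCW12 (0.93).

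MOT3 was most like the cell wall gene SED1 (0.98), HMG1 of sterol synthesis (0.98) and HYP2 (0.97), the aerobic counterpart of ANB1. ROX1 was less tightly matched, with CAR1, arginase (0.89), IDI1 of isoprenoid synthesis (0.85) and HYP2 (0.85). HAP2 had YBL086C, RTC2 and OM45 (0.85 each). Within oxygen levels, where the differences between levels are taken out, the correlation with the closest gene was 0.86 for HAP3 and ATP19, 0.81 for ROX1 and CAR1, and 0.75 for HAP4 and ATP2. It was 0.61 for MOT3 and SED1 and 0.55 for HAP1 and ECM22.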

How the data were processed

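The deposited table holds log2 intensities that the authors obtained by Robust Multichip Average (background correction, quantile normalisation and a summary per probe set), 1 column per array, and they were used as deposited. Probe sets were named through the platform annotation and the RefSeq gene table, which named 5498 of 5716. From these, 5449 genes entered the fit with 1 probe set each. A probe set that matches a single transcript was preferred where the gene had such a set. Among sets of the same kind the brightest was taken. Arrays were grouped by the oxygen level in their labels. One linear model with the 5 levels as groups was fitted with limma 3.58.1 in R 4.3.3, with moderated variances and Benjamini-Hochberg adjustment over all genes, and calls were made at an adjusted p of 0.01. The step was tested on simulated data. Intervals are 95% intervals of the fit, and the number of arrays limits their precision. Exact permutation tests and figures were made in Python 3.11.15 with NumPy 2.4.6, pandas 2.3.3 and Matplotlib 3.10.9.

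The 9 members, the gene lists and the tests were chosen with earlier results of these data known. All 9 members are named, with the 3 most alike genes of each one past the F test and at most 4 genes of a list in its written order; HEM1, HMG1, YHB1, HMG2, ERG6, ERG9 and SPT23 were named after their values were seen. Alternatives were 2 other normalisations, all probe sets, no dim genes, trended variances, array weights, a replicate block, only the levels compared, and fewer arrays. Which samples share a chemostat is not given in the labels, so this was not modelled. Sequences were not used here.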

Additional observations from a re-analysis of the deposited data

Results flagged for a closer look

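The 9 regulators at 5 oxygen levels formed 45 groups of samples. In 4 of them the gap of an array to its nearest neighbour, divided by the group's range, was above Dixon's critical value (0.829 for 4 samples). Chance alone sets apart about 1 in 20 groups. HAP2 was 9.38 in replicate 4 at 2.8% oxygen, where the other 3 arrays had 9.60. HAP3 was 9.43 in replicate 2 at 0.5% oxygen, where the others had 9.16 to 9.20. HAP5 was 8.87 in replicate 3 at 0% oxygen, against 8.64 to 8.65 in the others. CYC8 was 10.38 in replicate 3 at 20.9% oxygen, against 10.07 to 10.10 in the others. The HAP2 array is the replicate with the largest deviations over all genes at 2.8% oxygen. It is also among the 2 samples at 2.8% collected by direct centrifugation.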

How the results depend on the processing

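Of 81 results for single regulators, 29 were called, and 23 of these kept direction and call in every alternative; no called result turned its sign. The number of regulators called by the F test was 6 and lay between 5 and 7 (5 to 6 with 1 array left out). At the intermediate levels against 0% oxygen it was 6 and lay between 5 and 6 in all alternatives, those with 1 array left out included, and for 20.9% against the intermediate levels it was 4 in every one. For 20.9% against 0% oxygen it was 5, or 4 to 5 with 1 array left out, but 2 in a fit of only these levels. HAP1, HAP2 and HAP3 then missed the threshold. That fit has fewer arrays to estimate the spread and leaves out the intermediate ones. The share of all genes called was not counted in the alternatives. Whether the fall is particular to these regulators was thus not tested. For HAP1 the SD was 0.23 at 0% and 0.30 at 20.9% oxygen, against 0.08, 0.07 and 0.15 at 0.5, 1.0 and 2.8%. Samples of an equal replicate number deviated together in part: r was over 0.1 in 13 of 36 pairs (range -0.59 to 0.58), and in 9 of the 12 pairs among 0, 0.5 and 2.8% oxygen, those of numbers 2, 3 and 4. As not every pair did and the labels tie no number to a cultivation, the numbers were not taken to pair samples; with the replicate block the counts were 5, 5, 4 and 5, HAP2 being lost by the F test and at the intermediate levels. With array weights, HAP5 passed the F test (adjusted p = 0.0056), and HAP1, HAP3, HAP4, HAP5 and MOT3 each gained a call between intermediate levels. Leaving out the 2 arrays with the largest deviations, replicate 4 at 2.8% and replicate 4 at 20.9% oxygen, was added after the data were seen and gave 6, 6, 4 and 5.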
